A study of Arabidopsis thaliana with 38 samples.

Results

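The 6 YABBY and 4 KANADI genes of Arabidopsis thaliana were followed in nuclei of embryo cell types at 3 times after pollination. They were taken from the deposited array values by locus identifier alone, and make up 10 of the 27826 loci measured. The YABBY genes were FIL (AT2G45190, AFO in the RefSeq gene table), YAB2 (AT1G08465), YAB3 (AT4G00180), YAB5 (AT2G26580), CRC (AT1G69180) and INO (AT1G23420). The KANADI genes were KAN1 (AT5G16560), KAN2 (AT1G32240), KAN3 (AT4G17695) and KAN4 (AT5G42630, ATS in the same table). All 10 were on the array, and no filter on low values was applied to them.

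Both families encode transcription factors that act in the lower, or abaxial, side of lateral organs such as leaves and cotyledons. KANADI proteins are GARP-type factors that oppose the HD-ZIP III genes of the upper, or adaxial, side and act with the auxin response factors ETT and ARF4. YABBY proteins work together with the co-repressor LUG and its partners, and the family members FIL, YAB3, YAB2 and YAB5 are known from vegetative organs, whereas CRC is known from carpels and nectaries and INO from the outer integument of the ovule.

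The series holds 38 one-colour arrays in 11 groups. Nuclei were isolated with INTACT, a method that captures nuclei carrying a tag made in a chosen cell type. The promoters that drove the tag are not named in the labels, no genotype, accession or mutation is given for any group, and the replicates of a group, 3 or 4, were pooled biological replicates per the series design. At 72 h after hand pollination (the stage labelled 16-cell) the groups were inner lower tier cells (ILT_16C, 3 arrays) and the embryo (EMB_16C, 3 arrays). At 81 h (early globular, EG) they were vascular cells (VSC_EG, 4 arrays), ground tissue (GSC_EG, 4 arrays), the suspensor (SUS_EG, 3 arrays) and the embryo (EMB_EG, 4 arrays). At 100 h (late globular, LG) they were vascular cells (VSC_LG, 4 arrays), ground tissue (GSC_LG, 3 arrays), the suspensor (SUS_LG, 3 arrays), the group labelled QC (QC_LG, 3 arrays) and the embryo (EMB_LG, 4 arrays). Stage and time cannot be told apart, since each stage was taken at 1 time.

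All levels below are log2 intensities and all differences are differences of log2 group means. Array medians over all loci lay between 2.47 and 2.71, and interquartile ranges between 1.03 and 2.1, the lowest on QC_LG 2. The GSC_LG arrays were among the wider ones (1.82, 2.06 and 1.51). The other arrays of 100 h ran from 1.03 to 1.59 (SUS_LG 2). Markers of the labelled cell types were weak in part. Of 7 ground tissue markers, 0 were called by limma in GSC_LG against EMB_LG (2 had an unadjusted p under 0.05) and 0 in GSC_EG against EMB_EG (1 under 0.05). SCR, a ground tissue regulator, was at 5.53 in GSC_LG and 3.85 in EMB_LG (difference 1.68, adjusted p = 0.0854), but at 3.12 in GSC_EG and 3.46 in EMB_EG. Of 8 quiescent centre markers, WIP4 was called higher in QC_LG than in EMB_LG. WOX5, which defines the quiescent centre, was at 3.63 in QC_LG and 2.5 in EMB_LG (adjusted p = 0.153). Of 12 vascular markers, LOG4 was called higher in VSC_LG than in EMB_LG and 0 were called in VSC_EG against EMB_EG (2 under 0.05). Of 3 suspensor markers, 0 were called in SUS_EG (2 under 0.05) or SUS_LG (0 under 0.05) against the embryo. By mean level, the ground tissue list was highest in GSC_LG (3.34) and the suspensor list in SUS_LG (3.05). GSC_LG also had the highest mean of the quiescent centre list (3.11, QC_LG 2.97) and of the vascular list (3.43, VSC_LG 3.38). High levels in GSC_LG were thus not limited to ground tissue markers.

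Which of the genes differed at all between the 11 groups was asked first. FIL, CRC, KAN1 and YAB5 passed limma's F-test over the group means at a Benjamini-Hochberg adjusted p under 0.05, and the other 6 did not, while 9.56% of all loci passed. The adjusted p was 1.98e-06 for FIL, 0.00535 for CRC, 0.0174 for KAN1 and 0.0452 for YAB5. KAN4 lay just outside the threshold with 0.0656, followed by YAB2 (0.206), KAN3 (0.320), YAB3 (0.429), INO (0.548) and KAN2 (0.552). FIL and CRC passed under all 45 alternative settings and arrays left out. KAN1 missed the threshold under 3 of them (adjusted p = 0.119 without GSC_LG 2, 0.0732 without GSC_LG 1 and 0.0645 when array spread entered the fit). YAB5 passed under only 13 of 45. FIL lay above the array median on 33 of 38 arrays, KAN1 and YAB2 on 27 each, KAN2 on 15, CRC on 14, YAB3 and INO on 11 each, KAN3 on 9, YAB5 on 8 and KAN4 on 6, so that most members were dim on most arrays.

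**Figure D1:**
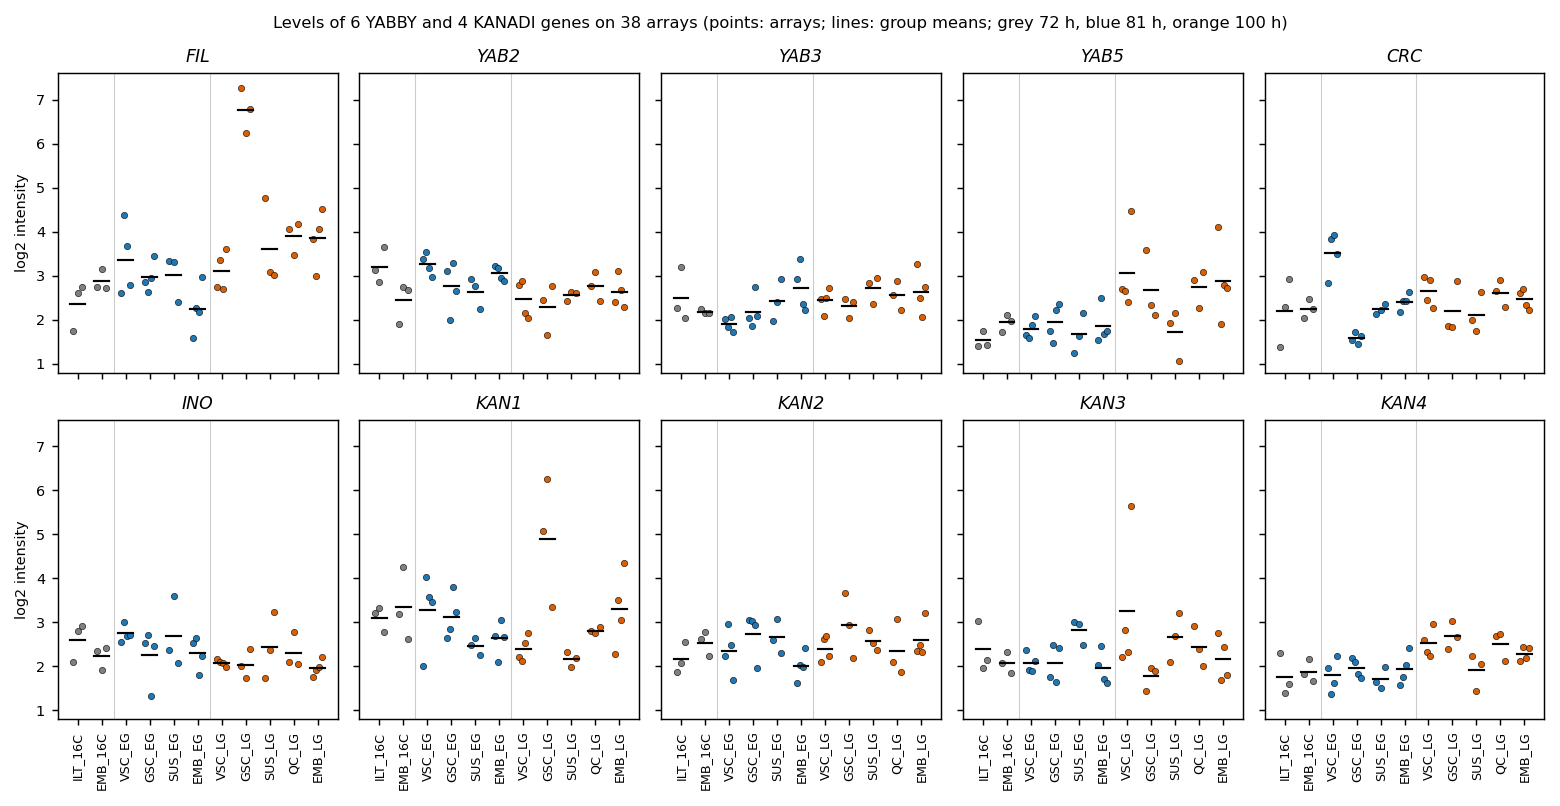
Log2 intensity (y axis) of the 6 YABBY and 4 KANADI genes on 38 arrays in 11 groups (x axis), with 1 point per array and a line at each group mean. FIL sits at 6.23 to 7.28 on the 3 GSC_LG arrays and at 4.76 or below on the other 35, KAN1 is highest in GSC_LG with widely spread arrays, and CRC is highest in VSC_EG.

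FIL, which promotes abaxial identity in lateral organs, was highest in ground tissue nuclei at 100 h. Its level was 7.28, 6.23 and 6.78 on the 3 GSC_LG arrays (mean 6.76 ± 0.52, SD, n = 3). On the other 35 arrays it ran from 1.59 (EMB_EG 1) to 4.76 (SUS_LG 1). All 3 GSC_LG arrays therefore lay above every other array of the study. The 4 EMB_LG arrays read 3.83, 3.00, 4.06 and 4.51, the 3 QC_LG arrays 4.07, 3.47 and 4.18, and the 3 SUS_LG arrays 4.76, 3.07 and 3.02. The 4 VSC_LG arrays read 2.75, 3.36, 2.69 and 3.61, and the 4 GSC_EG arrays 2.86, 2.63, 2.94 and 3.46. Each of these 5 groups stood apart from GSC_LG with no overlap. Of all loci, 14.4% were apart in this way for EMB_LG, 23.2% for QC_LG, 20.1% for SUS_LG, 17.5% for VSC_LG and 11.8% for GSC_EG.

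FIL was called in all 4 comparisons of GSC_LG within its stage and in the comparison with GSC_EG. It was 7.53-fold higher in GSC_LG than in the whole embryo of the same stage (difference 2.91, SE 0.434, adjusted p = 0.00137), a comparison in which 0.449% of all loci were called. It was 12.6-fold lower in VSC_LG than in GSC_LG (adjusted p = 2.28e-05), where 1.24% of loci were called. It was 8.86-fold lower in SUS_LG (adjusted p = 0.00135), with the share of loci called again at 1.24%. It was 7.24-fold lower in QC_LG (adjusted p = 0.00154, 3.09% of loci called). These 4 comparisons share the GSC_LG arrays. FIL rose 13.8-fold in ground tissue between 81 h and 100 h (difference 3.79, SE 0.434, adjusted p = 9.97e-06), where 1.47% of loci were called. All 5 calls held under the alternatives tried, with adjusted p from 1.21e-06 to 0.0364. In bulk nuclei a larger share of cells with the transcript and more transcript per nucleus cannot be told apart.

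The order of the FIL group means was taken from these same data. GSC_LG was followed by QC_LG (3.91), EMB_LG (3.85), SUS_LG (3.62), VSC_EG (3.36), VSC_LG (3.10), SUS_EG (3.01), GSC_EG (2.97), EMB_16C (2.88), ILT_16C (2.37) and EMB_EG (2.25). Of the 10 steps between neighbours, the 95% interval from limma excluded 0 only for the step from QC_LG to GSC_LG (2.86, interval 1.91 to 3.80). Sorting by the means makes most steps small, and the intervals were not adjusted for it. The steps therefore describe the order and are no test of it. In the whole embryo, FIL was at 1.59, 2.26, 2.17 and 2.98 on the EMB_EG arrays against 3.83, 3.00, 4.06 and 4.51 on the EMB_LG arrays. All EMB_LG arrays were above all EMB_EG arrays, and 5.49% of all loci did not overlap between these groups. The difference of 1.60 (SE 0.402) did not pass over all loci (adjusted p = 0.126, and 0.00944 with array weights). At 81 h FIL did not stand out in ground tissue, since the GSC_EG minus EMB_EG difference was 0.72 (adjusted p = 0.487). The change of the ground tissue difference between 81 h and 100 h was 2.19 (SE 0.592, 95% interval 0.99 to 3.39). It did not pass over all loci (adjusted p = 0.313, and 0.135 to 0.718 over the alternatives), a test in which 0% of loci were called.

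YAB3, which acts redundantly with FIL in leaves and flowers, did not share this pattern. Its level was 2.47, 2.05 and 2.41 on the GSC_LG arrays and 3.27, 2.49, 2.06 and 2.74 on the EMB_LG arrays, which overlap. The GSC_LG minus EMB_LG difference was -0.33 (95% interval -0.97 to 0.31, adjusted p = 0.667). Its group means ran only from 1.91 (VSC_EG) to 2.72 (SUS_LG). The lowest adjusted p of its 28 comparisons was 0.147, for VSC_EG against EMB_EG. There the VSC_EG arrays (2.02, 1.84, 2.05 and 1.71) lay below the EMB_EG arrays (2.93, 3.38, 2.36 and 2.21). Of all loci, 7.65% did not overlap between these groups.

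YAB2 and YAB5 are the other YABBY genes of vegetative organs. YAB2 had its lowest group mean in GSC_LG (2.28), where FIL had its highest, and its highest in VSC_EG (3.27) and ILT_16C (3.21). The 3 GSC_LG arrays of YAB2 read 2.44, 1.64 and 2.77 and the 4 VSC_EG arrays 3.38, 3.54, 3.18 and 2.98. Between the vascular groups its level was lower at 100 h with no overlap (difference -0.80, SE 0.293), which did not pass over all loci (adjusted p = 0.190). The vascular groups did not overlap for 5 of the 10 members, beside 6.81% of all loci. For YAB2 none of 28 comparisons was called by limma and 2 had an unadjusted p under 0.05.

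YAB5 was dim until 81 h and higher in some groups at 100 h. Its level on the 21 arrays of 72 h and 81 h ran from 1.25 to 2.5, and the 6 group means of those times from 1.53 (ILT_16C) to 1.94 (GSC_EG). At 100 h the means were 3.05 in VSC_LG, 2.89 in EMB_LG, 2.75 in QC_LG and 2.68 in GSC_LG, with SUS_LG at 1.71. The VSC_LG arrays read 2.71, 2.65, 2.40 and 4.46, all above the VSC_EG arrays (1.66, 1.58, 1.87 and 2.08). That difference of 1.26 (SE 0.402) had the lowest adjusted p of its 28 comparisons, 0.128. None was called and 7 had an unadjusted p under 0.05, so YAB5 passed the F-test with no single comparison called. The vascular groups did not overlap for 6.81% of all loci.

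CRC, the YABBY gene of carpels and nectaries, was highest in vascular nuclei at 81 h. The VSC_EG arrays read 2.83, 3.83, 3.93 and 3.5, the EMB_EG arrays 2.17, 2.41, 2.42 and 2.64, and the GSC_EG arrays 1.54, 1.73, 1.46 and 1.63. Every VSC_EG array was above every array of both other groups, and GSC_EG held the lowest group mean of CRC (1.59). Of all loci, 7.65% did not overlap between VSC_EG and EMB_EG and 6.43% between VSC_EG and GSC_EG. CRC was 3.82-fold higher in VSC_EG than in GSC_EG (difference 1.93, SE 0.291, adjusted p = 0.00123), where 0.74% of all loci were called. It was 2.17-fold higher than in EMB_EG (difference 1.12, SE 0.291, adjusted p = 0.0347), where 2.15% of loci were called. Against the inner lower tier of 72 h (1.39, 2.28 and 2.93), whose arrays overlap those of VSC_EG, the difference was 1.32 (SE 0.315, adjusted p = 0.0491, 0.41% of loci called).

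The CRC call against GSC_EG held without any 1 array, but the other 2 did not. Against EMB_EG it missed the threshold without VSC_EG 2 (adjusted p = 0.139), VSC_EG 3 (0.137), EMB_EG 1 (0.116), EMB_EG 2 (0.0752) or EMB_EG 3 (0.0819). Against ILT_16C it did so without ILT_16C 1 (difference 0.92, adjusted p = 0.240), ILT_16C 2 (0.0971), VSC_EG 2 (0.168) or VSC_EG 3 (0.170). VSC_EG was followed in the order of CRC means by VSC_LG (2.65). This first step, 0.88 with a 95% interval of 0.28 to 1.47, was the only 1 of 10 whose interval excluded 0. As for FIL, the groups were sorted by these means and the interval was not adjusted for it. The suspensor at 81 h (2.12, 2.23 and 2.36) was also below every VSC_EG array, with a difference of -1.29 that did not pass (adjusted p = 0.0930). Between SUS_EG and VSC_EG 8.16% of all loci did not overlap. Of 8 carpel and integument markers, 0 were called in VSC_EG against EMB_EG (1 under 0.05) or against GSC_EG (2 under 0.05). The mean level of these markers was highest of the 11 groups in VSC_EG (3.57), followed by GSC_EG (3.45). It was 3.26 to 3.84 on the VSC_EG arrays, 3.06 to 3.57 on the EMB_EG arrays and 3.29 to 3.69 on the GSC_EG arrays. The stress list differed between these groups too, since its mean level was 4.18 to 5.09 on the VSC_EG arrays, above the EMB_EG arrays (3.40 to 3.72) and below the GSC_EG arrays (5.62 to 6.41). Of its 12 genes, the stress regulator WRKY40 was called higher in VSC_EG than in EMB_EG (3.39, adjusted p = 0.00242), and HSP70 (-3.60, adjusted p = 0.000915) and HSFA2 (-2.61, adjusted p = 0.00888) lower than in GSC_EG. The part of either list in the CRC result was not tested.

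INO, the YABBY gene of the outer integument, showed no group that stood apart. Its group means ran from 1.96 (EMB_LG) to 2.74 (VSC_EG), and its 38 arrays from 1.31 to 3.59. None of its 28 comparisons was called and 1 had an unadjusted p under 0.05, for the vascular groups (adjusted p = 0.362). There the VSC_LG arrays (2.17, 2.08, 2.08 and 1.98) lay below the VSC_EG arrays (2.56, 3.01, 2.69 and 2.71). Of all loci, 6.81% did not overlap between these groups.

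KAN1, whose loss with KAN2 turns the lower leaf side into an upper one, was highest in GSC_LG like FIL, but with a wide spread. Its level was 5.07, 6.26 and 3.35 on the GSC_LG arrays (mean 4.89 ± 1.47, SD, n = 3). On the other 35 arrays it ran from 1.98 (SUS_LG 2) to 4.33 (EMB_LG 4), so 2 of the 3 GSC_LG arrays lay above all of them. The EMB_LG arrays read 2.27, 3.51, 3.06 and 4.33 and overlapped GSC_LG. The VSC_LG arrays (2.20, 2.11, 2.53 and 2.75), the SUS_LG arrays (2.33, 1.98 and 2.19) and the QC_LG arrays (2.79, 2.75 and 2.88) did not. Of all loci, 17.5%, 20.1% and 23.2% did not overlap with GSC_LG in these groups.

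KAN1 was called lower than in GSC_LG in the 3 other cell types of 100 h. It was 5.63-fold lower in VSC_LG (difference -2.49, SE 0.487, adjusted p = 0.00843), 6.61-fold lower in SUS_LG (difference -2.73, SE 0.520, adjusted p = 0.00644) and 4.24-fold lower in QC_LG (difference -2.08, SE 0.520, adjusted p = 0.0211). Without GSC_LG 2 all 3 calls were lost, with differences of -1.81 (adjusted p = 0.131), -2.04 (0.0964) and -1.40 (0.240). The QC_LG call was also lost without GSC_LG 1 (0.0730), QC_LG 2 (0.0749) or QC_LG 3 (0.0547). Against the embryo, the GSC_LG difference of 1.60 (SE 0.487) did not pass (adjusted p = 0.146), although it did without GSC_LG 3 (2.37, adjusted p = 0.0195). Against GSC_EG (2.64, 2.84, 3.81 and 3.22) the difference of 1.77 (SE 0.487) lay just outside the threshold (adjusted p = 0.0558) and inside it without GSC_EG 3 (0.0400) or GSC_LG 3 (0.00530).

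After GSC_LG, the order of KAN1 means was EMB_16C (3.35), EMB_LG (3.29), VSC_EG (3.27), GSC_EG (3.13), ILT_16C (3.10), QC_LG (2.81), EMB_EG (2.63), SUS_EG (2.46), VSC_LG (2.40) and SUS_LG (2.17). Only the step from EMB_16C to GSC_LG had an interval that excluded 0 (1.55, interval 0.49 to 2.60). This interval too was not adjusted for the sorting by means. The GSC_LG difference from EMB_LG, of similar size, did not pass over all loci. At 72 h KAN1 ran from 2.61 to 4.25 over both groups, and no KAN1 comparison with a 72 h group was called.

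KAN2 and KAN3, which share organ polarity functions with KAN1, gave no called difference. KAN2 had its highest mean in GSC_LG (2.93, arrays 3.66, 2.93 and 2.19) and its lowest in EMB_EG (2.01). Its GSC_LG minus EMB_LG difference was 0.34 (95% interval -0.38 to 1.05), and 1 of its 28 comparisons had an unadjusted p under 0.05. KAN3 was lowest in GSC_LG (1.44, 1.96 and 1.89) and had its highest mean in VSC_LG (3.25), where 1 array stood at 5.65 and the others at 2.20, 2.81 and 2.33. The VSC_LG minus GSC_LG difference of KAN3 was 1.48 (SE 0.485) and did not pass (adjusted p = 0.108). KAN1 thus had its highest mean and KAN3 its lowest in GSC_LG, but KAN3 did not pass the F-test. The KAN3 step from EMB_EG to GSC_LG was 0.18 (95% interval -0.80 to 1.17), so its lowest place is uncertain.

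KAN4, which acts in the integuments, was dim in all groups. Its group means ran from 1.70 (SUS_EG) to 2.70 (GSC_LG). In vascular nuclei the VSC_LG arrays (2.59, 2.32, 2.22 and 2.95) lay above the VSC_EG arrays (1.95, 1.36, 1.61 and 2.22) with a difference of 0.74 (adjusted p = 0.171). The GSC_LG arrays (2.39, 3.02 and 2.67) lay above the GSC_EG arrays (2.19, 2.10, 1.81 and 1.73) by the same 0.74 (adjusted p = 0.212). Of all loci, 6.81% did not overlap between the vascular groups and 11.8% between the ground tissue groups. No KAN4 comparison was called and 4 had an unadjusted p under 0.05.

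Over the 11 group means, the most alike pair of members was YAB5 and KAN4 (Pearson r 0.921 across groups and 0.489 across the 38 arrays). FIL correlated with KAN1 (0.744 and 0.579), KAN4 (0.703 and 0.429) and KAN2 (0.687 and 0.466), whereas the values for FIL and YAB3 were -0.105 and -0.0831. Negative values were found for YAB5 and INO (-0.791 and -0.487), INO and KAN4 (-0.766 and -0.464), YAB2 and KAN2 (-0.732 and -0.205) and KAN1 and KAN3 (-0.712 and -0.350). These values describe 11 groups that share arrays of 3 stages and 1 normalization. FIL and KAN1 both had their highest mean in GSC_LG, and no correlation was computed without that group.

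**Figure D2:**
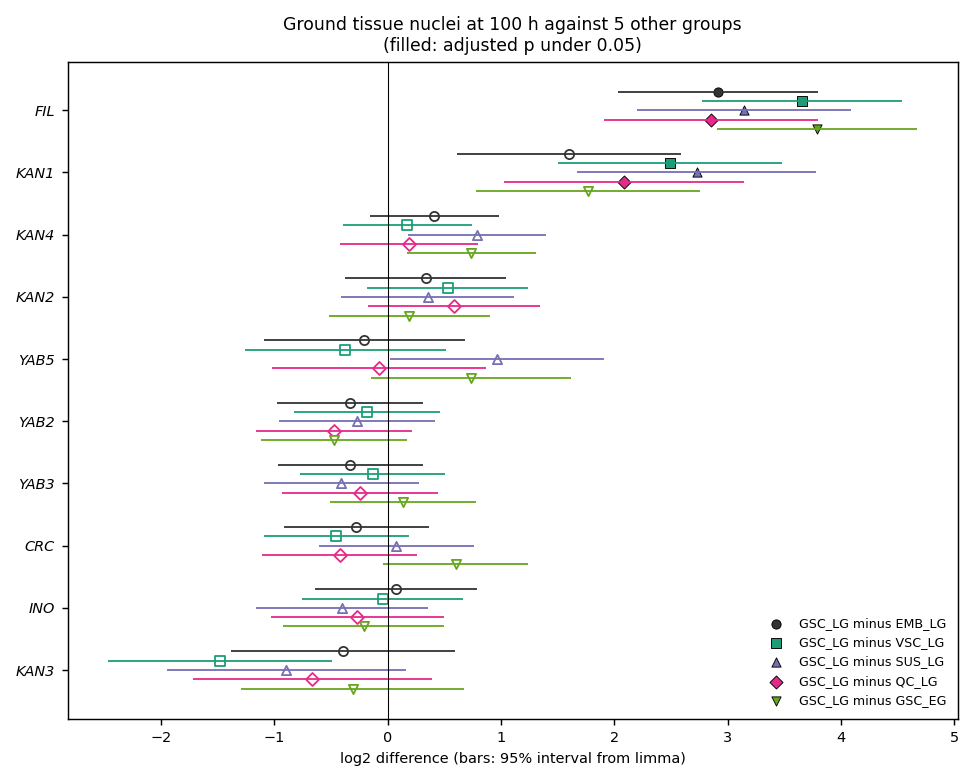
Log2 differences (x axis) of ground tissue nuclei at 100 h against 5 other groups for each of the 10 genes (y axis). Points are group differences, bars 95% intervals from limma, and filled points adjusted p under 0.05. The 5 FIL differences lie between 2.86 and 3.79, 3 of the 5 KAN1 differences are filled, and the other 8 genes have no filled point.

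As a family in GSC_LG against EMB_LG, 1 of 10 members was called (0.449% of all loci), 5 lay above 0, and their median difference was -0.07 beside -0.10 over all loci. In GSC_LG against GSC_EG, 1 of 10 was called (1.47% of all loci), 7 lay above 0, and the median was 0.40 beside -0.02 over all loci.

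In all, 9 of 170 member tests within a stage were called, for FIL, CRC and KAN1, in 6 of the 17 comparisons. That is 5.29% of the member tests, beside 0.835% of all tests over all loci in the same comparisons. The FIL and KAN1 calls all share the GSC_LG arrays, so these tests are not independent. At an unadjusted p under 0.05 the shares were 15.3% of member tests and 11.5% of all tests. At 72 h, 0 members were called by limma in ILT_16C against EMB_16C (1 under an unadjusted p of 0.05). There 0.449% of all loci were called and 10.1% had an unadjusted p under 0.05. YAB2 was the member under that value (2.86 to 3.64 in ILT_16C and 1.89 to 2.74 in EMB_16C). At 81 h, 0 members were called in GSC_EG against EMB_EG (2 under 0.05, 1.12% of loci called) or in SUS_EG against EMB_EG (0 under 0.05, 0.198% of loci). Neither were any called in SUS_EG against VSC_EG (1 under 0.05, 0.0575% of loci) or against GSC_EG (1 under 0.05, 0.0252% of loci). Of all loci, 12.3%, 7.94%, 10.6% and 8.46% had an unadjusted p under 0.05 in these comparisons of 81 h, in the order given.

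At 100 h, 0 members were called in VSC_LG against EMB_LG (1 under 0.05, 0.787% of loci called), in SUS_LG against EMB_LG (2 under 0.05, 0.967%) or in QC_LG against EMB_LG (0 under 0.05, 1.5%). The same count of 0 was found in SUS_LG against VSC_LG (2 under 0.05, 0.0144%), QC_LG against SUS_LG (1 under 0.05, 0.101%) and QC_LG against VSC_LG (0 under 0.05, 0.0683%). Of all loci, 10.5%, 10.6%, 11.9%, 7.11%, 8.51% and 6.54% had an unadjusted p under 0.05 in these comparisons of 100 h, in the order given. Every call at 100 h thus involved GSC_LG.

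Between stages, 2 of 80 member tests were called, FIL in ground tissue and CRC between ILT_16C and VSC_EG. That is 2.5% beside 0.493% over all loci. At an unadjusted p under 0.05 the shares were 18.8% of member tests and 9.85% of all tests. No member was called by limma in the embryo from 72 h to 81 h (0 under 0.05, 0.187% of loci called), from 81 h to 100 h (2 under 0.05, 0.111%) or from 72 h to 100 h (2 under 0.05, 0.237%). Of all loci, 8.61%, 8.30% and 7.71% had an unadjusted p under 0.05 there, in the same order. In vascular nuclei from 81 h to 100 h the count was 0 with 6 of 10 members under 0.05, where 1.1% of loci were called and 13.7% had an unadjusted p under 0.05. The 6 differences, none of which passed, were 1.26 for YAB5, 1.18 for KAN3, 0.74 for KAN4, -0.80 for YAB2, -0.88 for CRC and -0.66 for INO. Counts were also 0 in the suspensor from 81 h to 100 h (0 under 0.05, 0.359%) and from ILT_16C to GSC_EG (0 under 0.05, 0.0755%). There 7.47% and 8.86% of all loci had an unadjusted p under 0.05. None of 30 tests of whether a difference from the embryo changed between 81 h and 100 h passed for a member (4 under 0.05). Over all loci, 6.93% of such tests had an unadjusted p under 0.05. The share of loci called there was 0% for vascular nuclei, as for ground tissue above, and 0.00719% for the suspensor.

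ETT (AT2G33860), the auxin response factor that works with KANADI proteins on the abaxial side, was high in GSC_LG together with FIL and KAN1. Its arrays read 5.34, 5.55 and 5.54 in GSC_LG and 4.11, 3.88, 4.24 and 3.29 in EMB_LG. They did not overlap, as was so for 14.4% of all loci. ETT was 3.02-fold higher in GSC_LG than in EMB_LG (difference 1.60, SE 0.337, adjusted p = 0.0211). That call was lost without GSC_LG 1 (adjusted p = 0.0639), GSC_LG 2 (0.114), GSC_LG 3 (0.0712), EMB_LG 2 (0.0530) or EMB_LG 4 (0.0577). ETT was lower than in GSC_LG in VSC_LG (difference -1.31, adjusted p = 0.0446), SUS_LG (-1.82, adjusted p = 0.00759) and QC_LG (-1.96, adjusted p = 0.00311). It rose 6.27-fold in ground tissue from 81 h to 100 h (difference 2.65, adjusted p = 3.80e-05), and rose in vascular nuclei too (difference 1.63, adjusted p = 0.00719).

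Of the 7 abaxial partners (ETT, ARF4, LUG, LUH, SEU, SLK1 and SLK2), 1 was called higher in GSC_LG than in EMB_LG and all 7 lay above 0, with a median difference of 0.47 beside -0.10 over all loci. LUG (AT4G32551), the co-repressor bound by YABBY proteins, was called lower in SUS_LG than in GSC_LG (difference -1.51, adjusted p = 0.0427). Its GSC_LG minus EMB_LG difference of 0.38 did not pass (adjusted p = 0.665).

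Of the 11 adaxial genes, 0 were called in GSC_LG against EMB_LG (2 under 0.05) or against GSC_EG (4 under 0.05). PHB (AT2G34710), an HD-ZIP III gene of the adaxial side, was at 5.0, 6.06 and 6.16 in GSC_LG, and was called lower in SUS_LG (difference -2.19, adjusted p = 0.0237) and QC_LG (-2.11, adjusted p = 0.0179). A gene of the opposite side was therefore also higher in GSC_LG than in these 2 groups. In VSC_EG, where CRC was highest, ZPR4 (AT2G36307), a small leucine zipper gene that restrains HD-ZIP III proteins, was called higher than in EMB_EG (1.76, adjusted p = 0.00574) and GSC_EG (1.97, adjusted p = 0.00861).

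Of the 7 genes of trans-acting small RNAs and blade outgrowth, 0 were called in GSC_LG against EMB_LG (3 under 0.05). SGS3 (AT5G23570), needed to make trans-acting small RNAs that limit ETT and ARF4, was lower than in GSC_LG in VSC_LG (-1.52, adjusted p = 0.0387) and QC_LG (-1.59, adjusted p = 0.0245). AGO10 (AT5G43810), which protects HD-ZIP III transcripts from microRNAs, was lower in SUS_LG (-1.68, adjusted p = 0.0376). Of the 9 shoot meristem and boundary genes, 0 were called in GSC_LG against EMB_LG (0 under 0.05). In ground tissue from 81 h to 100 h, KNAT6 (AT1G23380), a meristem homeobox gene, rose (1.45, adjusted p = 0.00755) and its relative BP (AT4G08150) fell by 1.46 (adjusted p = 0.0343).

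**Figure D3:**
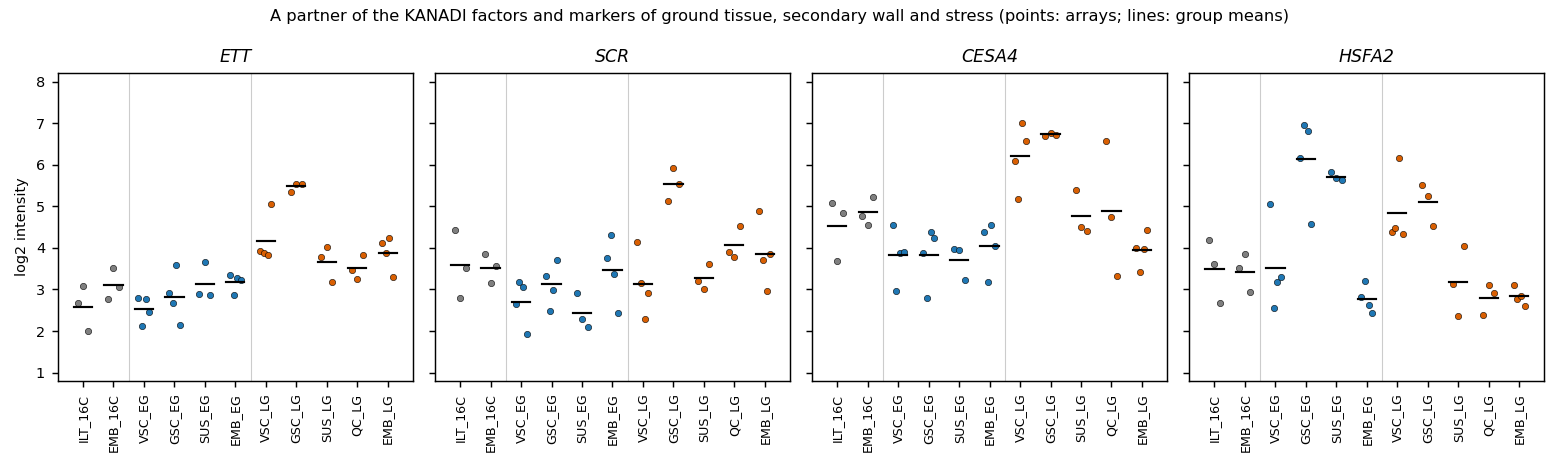
Log2 intensity (y axis) of ETT, the ground tissue regulator SCR, the secondary wall cellulose synthase CESA4 and the heat stress factor HSFA2 on 38 arrays in 11 groups (x axis), with 1 point per array and a line at each group mean. ETT and SCR peak in GSC_LG as FIL does, CESA4 is high in GSC_LG (6.73) and VSC_LG (6.2) alike, and HSFA2 is highest in GSC_EG (6.13).

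Markers of other cells moved with GSC_LG as well, and their part in the FIL and KAN1 differences was not tested. Of 18 secondary wall genes, 8 were called higher in GSC_LG than in EMB_LG, and their mean level was 4.08 to 4.66 on the GSC_LG arrays against 2.70 to 2.96 on the EMB_LG arrays. The same list was as high in VSC_LG (3.92 to 4.77), and 0 of 18 were called between VSC_LG and GSC_LG (1 under 0.05). Of 12 stress genes, HSFA2 was called higher in GSC_LG than in EMB_LG. The list's mean level was 4.54 to 5.44 in GSC_LG, 3.06 to 3.43 in EMB_LG and 5.62 to 6.41 in GSC_EG. Of 7 protoderm markers, 0 were called in GSC_LG against EMB_LG (0 under 0.05). Their mean level was 5.27 to 5.57 in GSC_LG and 4.83 to 5.61 in EMB_LG, which overlap. In GSC_LG it was above every array of GSC_EG (4.33 to 4.81), VSC_LG (4.30 to 4.75), SUS_LG (4.82 to 4.95) and QC_LG (3.97 to 4.89). PDF1, a protoderm gene, was called lower than in GSC_LG in SUS_LG (-2.18, adjusted p = 0.0269) and QC_LG (-2.18, adjusted p = 0.0169). PDF1 (2.05, adjusted p = 0.0215) and HDG11 (1.58, adjusted p = 0.0418) were higher in GSC_LG than in GSC_EG, and 0 of 7 were called in VSC_LG against GSC_LG (3 under 0.05).

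Other lists also separated GSC_LG from the groups it was compared with. Of the 18 secondary wall genes, CESA4, CESA7, CESA8, LAC2, FLA11, FLA12, IRX9 and CTL2 were the 8 called against EMB_LG. Against GSC_EG 8 were higher as well, the same genes except FLA12 and with LAC4 added. IRX9 was lower in SUS_LG, and CESA7, CESA8, FLA12, IRX9 and CTL2 in QC_LG. The ground tissue gene SCR was lower than in GSC_LG in VSC_LG (-2.40, adjusted p = 0.00703) and SUS_LG (-2.25, adjusted p = 0.0135), and JKD in QC_LG (-1.60, adjusted p = 0.0403). Both were higher in GSC_LG than in GSC_EG, SCR by 2.41 and JKD by 2.21. The organ growth gene ANT was lower in SUS_LG (-1.92, adjusted p = 0.0124) and QC_LG (-1.76, adjusted p = 0.0135) than in GSC_LG, and higher in GSC_LG than in GSC_EG (2.37, adjusted p = 0.000717). WIP4 was higher in QC_LG than in GSC_LG (2.16), and BBM higher in GSC_LG than in GSC_EG (2.34). Among stress genes, HSP70 (-2.56) and HSFA2 (-2.29) were lower in QC_LG than in GSC_LG, and HSP17.6II fell by 3.08 from GSC_EG to GSC_LG.

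Pollen and seed coat genes were higher in some of the groups where FIL and KAN1 were lower. The pollen list averaged 3.65 to 4.21 on the GSC_LG arrays, 4.70 to 6.25 on the VSC_LG arrays and 4.74 to 7.12 on the QC_LG arrays, with no overlap with GSC_LG. RALFL19 was called higher in VSC_LG than in GSC_LG (3.17, adjusted p = 0.00789). In QC_LG, 6 of 11 were called higher, AGP6, AGP11, VGD1, RALFL4, RALFL19 and MYB101, by 2.02 to 3.19. None was called in SUS_LG (1 under 0.05), and VEX1 was higher in GSC_LG than in GSC_EG (2.08). The seed coat list averaged 5.25 to 6.01 on the SUS_LG arrays against 4.13 to 4.41 on the GSC_LG arrays. TT8 (2.68), TT4 (1.57), LDOX (1.75) and DFR (1.97), genes of flavonoid synthesis or its control, were called higher in SUS_LG.

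Against the embryo, the seed coat list averaged 4.13 to 4.41 in GSC_LG and 4.43 to 4.87 in EMB_LG, with 0 of 13 genes called (2 under 0.05). The endosperm list averaged 1.60 to 1.99 and 2.18 to 2.40, with 0 of 10 called (2 under 0.05). Of 11 pollen genes, 0 were called in GSC_LG against EMB_LG (1 under 0.05), with mean levels of 3.65 to 4.21 and 3.47 to 4.29. Of 8 carpel and integument genes, 0 were called (2 under 0.05), with mean levels of 3.25 to 3.85 and 2.85 to 3.32. The part of these lists in the FIL and KAN1 differences was not tested.

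The genes whose group means were most like those of FIL, among 2360 loci with a symbol and an SD of the 11 group means of at least 0.5, were GRF5 (AT3G13960, r 0.938), NUB (AT1G13400, 0.928), PIN6 (AT1G77110, 0.926), SVB (AT1G56580, 0.921) and TLP1 (AT1G76900, 0.920). Over the 38 arrays the values were 0.779, 0.780, 0.796, 0.506 and 0.555. NUB, a zinc finger gene known from stamens and carpels, read 4.93, 5.23 and 4.10 in GSC_LG and 2.59, 1.86, 1.93 and 3.6 in EMB_LG. Its difference of 2.26 was called (adjusted p = 0.0042), as was that of the auxin transport gene PIN6 (1.76, adjusted p = 0.0042). GRF5, a growth-regulating factor, differed by 1.33 (adjusted p = 0.172).

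For KAN1 the most alike were NPY5 (AT4G37590, r 0.924), NAC084 (AT5G14000, 0.918), ER (AT2G26330, 0.893), GHR1 (AT4G20940, 0.883) and MAP65-2 (AT4G26760, 0.880), with 0.608 to 0.647 over the arrays. Of the genes named for FIL and KAN1, SVB (adjusted p = 0.601), GHR1 (0.119) and MAP65-2 (0.134) did not pass limma's F-test over the groups. All 10 of these genes had their highest group mean in GSC_LG, as had FIL and KAN1, by whose means they were picked. The receptor kinase gene ER read 6.78, 6.39 and 5.84 there and 4.71, 4.02, 4.15 and 5.30 in EMB_LG (difference 1.79, adjusted p = 0.0762). For CRC they were SCRL8 (AT1G60983, 0.879), HO2 (AT2G26550, 0.862), AIG2L (AT5G39720, 0.858), SCRL26 (AT4G22105, 0.857) and CID9 (AT3G14450, 0.846), all highest in VSC_EG. For YAB5 they were UBC20 (AT1G50490, 0.846), DRNL (AT1G24590, 0.841), OFP8 (AT5G19650, 0.830), CYCA2;3 (AT1G15570, 0.8) and ANT (AT4G37750, 0.799). Over the 38 arrays the values were lower, 0.373 (HO2) to 0.685 (SCRL8) for CRC and 0.199 (UBC20) to 0.676 (ANT) for YAB5. With 11 group means, 1 high group can carry much of such a correlation. Since the genes were picked by it, a shared highest group follows largely from the choice. The NUB and PIN6 calls in GSC_LG against EMB_LG are no separate result for the same reason.

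**Figure D4:**
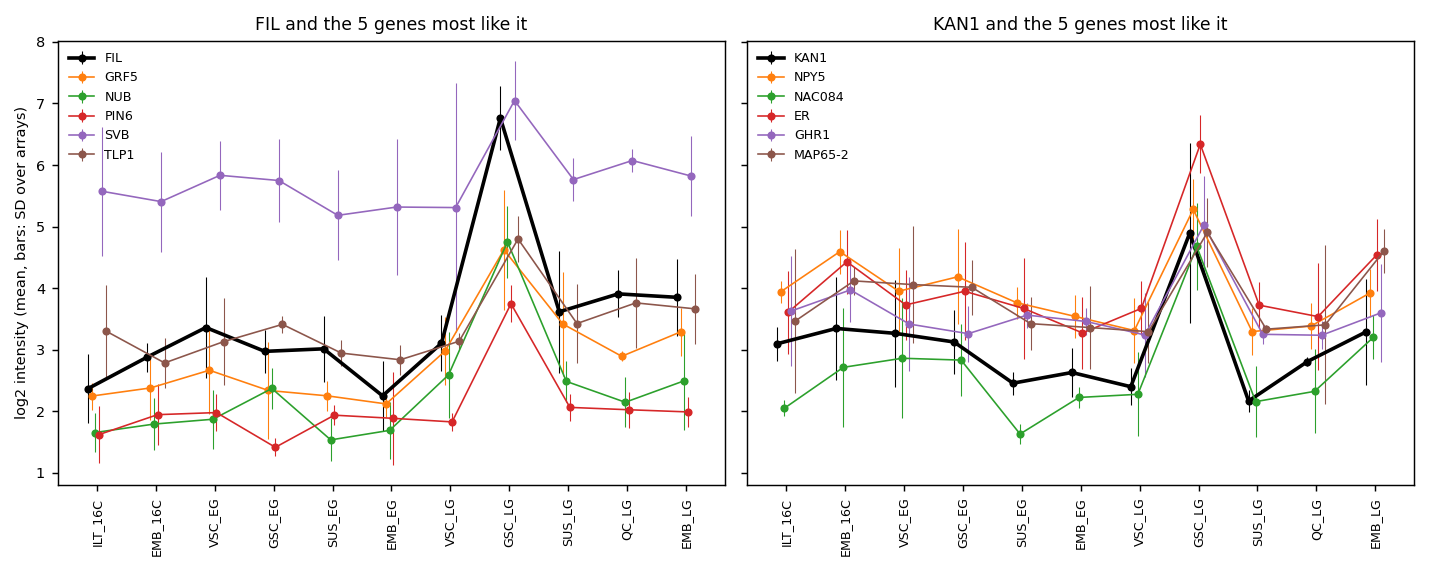
Group means (y axis, log2 intensity, bars SD over arrays) in 11 groups (x axis) of FIL with the 5 genes most like it and of KAN1 with the 5 most like it. Each of the 12 genes has its highest mean in GSC_LG, and FIL rises there to 6.76 from 3.91 in the next group. The other genes were picked by likeness to FIL or KAN1, so the shared highest group follows largely from the choice.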

How the data were processed

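The deposited values are linear array intensity values, 1 per locus and array, which the authors summarised by RMA before deposit. The submitters' processing notes name that tool without a version. The deposited arrays did not share 1 distribution (interquartile ranges of log2 values from 1.03 to 2.1), and scaling and spread were therefore varied. No constant was added before log2 of the deposited intensities was taken. limma 3.58.1 in R 4.3.3 fitted 1 mean per group over all 38 arrays (27 residual degrees of freedom), and p-values were adjusted by Benjamini-Hochberg over all 27826 loci in each of 28 comparisons, with a call at an adjusted p under 0.05. The fit was tested on simulated data with changes placed in GSC_LG. These data had normal noise of each locus's own spread around 1 mean. They held no other group differences and no differences in spread between arrays, unlike the deposited arrays. The counts below hold for that setting. Against EMB_LG it called 66 of 100 changes of 4-fold and 7 of 100 changes of 2-fold, with 4 false calls. The F-test called 45 and 1 of 100, with 5 false calls. Most 2-fold changes were thus missed in that setting, and a difference that did not pass does not show equal levels. Figures were drawn with matplotlib 3.10.9 in Python 3.11.15.

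Replicates are pooled samples, so p-values measure the spread between pools, and the number of arrays limits precision. Pairing of the samples by replicate number was not seen in the median correlation of deviations from group means. For 175 pairs of arrays with the same number in different groups it was -0.0014, and 19 exceeded 0.1. For 480 pairs with different numbers it was -0.0023, and 32 exceeded 0.1. A median cannot exclude that some groups were paired. Symbols came from the RefSeq gene table of TAIR10.1, which matched 27241 loci and named 10556. No coordinates are printed, since no build is given in the sources used here.

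The 10 genes and the 15 gene lists (143 genes) were chosen with earlier results of these data known. The text names all 10 genes, the list genes called in comparisons where a member was called, and for each member past the F-test the 5 loci most alike in group means. The rule also covers list genes called in comparisons with no member call, which are mostly not named. Genes given in more detail were picked after their values were seen. Alternatives covered quantile normalization, median centring, a filter on loci under the 25th percentile, array weights, an intensity trend, array spread as a covariate, a replicate block, fits on the compared arrays alone, and leaving out each array.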

Additional observations from a re-analysis of the deposited data

Results flagged for a closer look

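Of 50 gene and group combinations with 4 arrays, 2 held an array far from the others (a gap to the nearest array, over the group's range, above Dixon's critical value, which chance gives in about 1 in 20 groups). YAB5 was at 4.46 on VSC_LG 4 and at 2.71 on the nearest array of that group, a gap of 0.85 of the group's range. KAN2 was at 1.96 on GSC_EG 4 and at 2.92 on the nearest array, a gap of 0.895 of the range.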

How the results depend on the processing

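The 5 FIL calls and the count of 0 stage differences held under every alternative run. Members passing the F-test numbered 4, 2 with array spread as a covariate, and 2 to 5 with 1 array left out. Calls within a stage numbered 9, 4 in fits of the compared arrays alone, and 6 to 10 with 1 array left out. Calls between stages numbered 2, 1 after quantile normalization or with only the arrays compared, 4 with array weights or array spread, and 1 to 4 with 1 array left out. With only the arrays compared, no CRC or KAN1 call passed: CRC in VSC_EG kept its differences of 1.12 to EMB_EG, 1.93 to GSC_EG and 1.32 to ILT_16C, and KAN1 kept -2.49 in VSC_LG, -2.73 in SUS_LG and -2.08 in QC_LG against GSC_LG. These fits hold fewer arrays. Array spread as a covariate ended the KAN1 calls in VSC_LG (-1.87) and QC_LG (-1.46). On GSC_LG 1, GSC_LG 2 and GSC_LG 3 KAN1 read 5.07, 6.26 and 3.35, and the interquartile ranges were 1.82, 2.06 and 1.51. The CRC difference between VSC_EG and ILT_16C missed the threshold after quantile normalization (1.22), with the dim filter (1.32) and with array weights (1.26). The cause was not tested for these. With 1 array left out, CRC ran from 0.915 to 1.69 against ILT_16C and from 0.979 to 1.35 against EMB_EG. KAN1 ran from -3.27 to -1.81 in VSC_LG, from -3.50 to -2.04 in SUS_LG and from -2.86 to -1.40 in QC_LG.

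The replicate block gave 3 members past the F-test, 9 calls within a stage and 3 between stages. It added KAN1 in GSC_LG against GSC_EG (1.88, adjusted p = 0.0361, limma), and FIL in GSC_LG against EMB_LG was 3.03. It ended none of the 11 member calls. Quantile normalization and median centring moved the median difference of all loci by up to 0.101 and 0.11. Most members lay below the array median on most arrays, and no detection value was used here, so differences among such low levels are the least certain.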
